A study of Homo sapiens with 8 samples.

Results

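WNT proteins are secreted, lipid-bearing signals that bind Frizzled receptors on the cell surface. Together with the co-receptors LRP5 and LRP6 they keep beta-catenin from being degraded, and through other partners they direct cell polarity and movement. Some Dickkopf (DKK) proteins, such as DKK1, block the co-receptors, and secreted Frizzled-related proteins (SFRP and FRZB) bind WNTs outside the cell. The genes described here are the 38 rows of the deposited gene table whose symbols name a WNT ligand (19), a Frizzled receptor (10), a DKK antagonist (4) or an SFRP antagonist including FRZB (5), out of 20323 genes in all. The rows were taken by name, with earlier results of these data known.

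RNA sequencing was done on H2452, an established cell line from a biphasic pleural mesothelioma, labelled wild type in every sample. Cells received 20 nM deoxypodophyllotoxin (DPT), a tubulin-binding lignan from plants that keeps microtubules from assembling, for 48 h in 4 libraries, and DMSO, its solvent, for 48 h in the other 4. The libraries of a group are described as biological replicates. Both groups share the line, the serum-containing medium and the solvent, so the data describe 1 line at 1 dose and time.

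Library totals ranged from 14964432 to 17205391 counts, with means of 16293826 in DPT and 15680431 in DMSO (two-sided exact permutation test, p = 0.314). DPT replicate 2 and DMSO replicate 3 stood apart from the other 6 libraries, with scores of 29.26 and 40.76 on the first principal component (36.8% of the variance) against -25.6 to -1.02 for the rest. Many results are therefore also given with a term for these libraries in the model and from the 6 other libraries. Where these fits are not given, no agreement between them is implied. All 10 mesothelial markers examined were detected, among them MSLN, CALB2 and WT1, and their summed level was 2164 to 3548 CPM (counts scaled to library size, TMM-normalized) in DPT and 3378 to 4862 CPM in DMSO, mostly keratins, with 2 of 10 called lower. The leukocyte marker MS4A1, the endothelial marker EMCN and the fibroblast markers DCN and LUM were at 0 in every library. The summed leukocyte markers were 94.8 to 146.4 CPM in DPT and 91.9 to 130.7 CPM in DMSO, nearly all of it CD68 and CD14. The summed endothelial markers, 1 of 7 at 0, were 3.66 to 9.45 CPM in DPT and 1.81 to 5.34 CPM in DMSO. Of 3 tested, 1 was called higher (33.3%, against 5.68% of all tested genes), and 2 with the term (66.7%, against 16.9%). The 1 was KDR, chosen after its values were seen. KDR passed the filter on low counts only through the DPT libraries, so these shares are no support. The summed fibroblast markers, 2 of 10 at 0, were 173.7 to 280.4 CPM in DPT and 439.1 to 543.5 CPM in DMSO, mostly the collagen COL1A2. Of 6 tested, 3 were called lower (50.0%, against 5.29% of all tested genes), and 6 with the term (100%, against 17.0%). The part of these differences in the results below was not tested. In bulk RNA, fewer cells that carry a message and less of it per cell cannot be told apart.

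The comparison of DPT with DMSO asks which parts of the WNT signalling set differ after exposure to the tubulin binder. DKK1, FZD8 and WNT7A rose, and FZD2 and SFRP2 fell. WNT3, a ligand of the beta-catenin branch, did not pass the test, nor did WNT5A, WNT5B, DKK3 or the other 5 expressed Frizzled genes. Of the 38 genes, 18 passed the filter on low counts and were tested, and 20 did not. A gene was called at a Benjamini-Hochberg adjusted p under 0.05 from edgeR's quasi-likelihood test over all 12648 tested genes, and every adjusted p given here is from that test unless another is named. Of the 18, 3 (16.7%) were called higher, where 5.68% of all tested genes were, and 2 (11.1%) were called lower, where 5.29% of all tested genes were. The groups' libraries did not overlap in 7 of the 18 (38.9%), against 18.2% of all tested genes. With the term, 3 rose (16.7%) and 5 fell (27.8%), against 16.9% and 17.0% of all tested genes, so that the share of rises was near the background. In the 6 libraries, 4 rose (22.2%) and 5 fell (27.8%), against 17.0% and 17.1%. The median log2 fold change was -0.09 over the 18 genes and -0.002 over all tested genes. WNT7A and WNT7B passed the filter through the DPT group, since 1 and 2 of their DMSO libraries reached the minimum level, so these counts do not describe all 38 genes and are no support for a shift of the family.

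**Figure D1:**
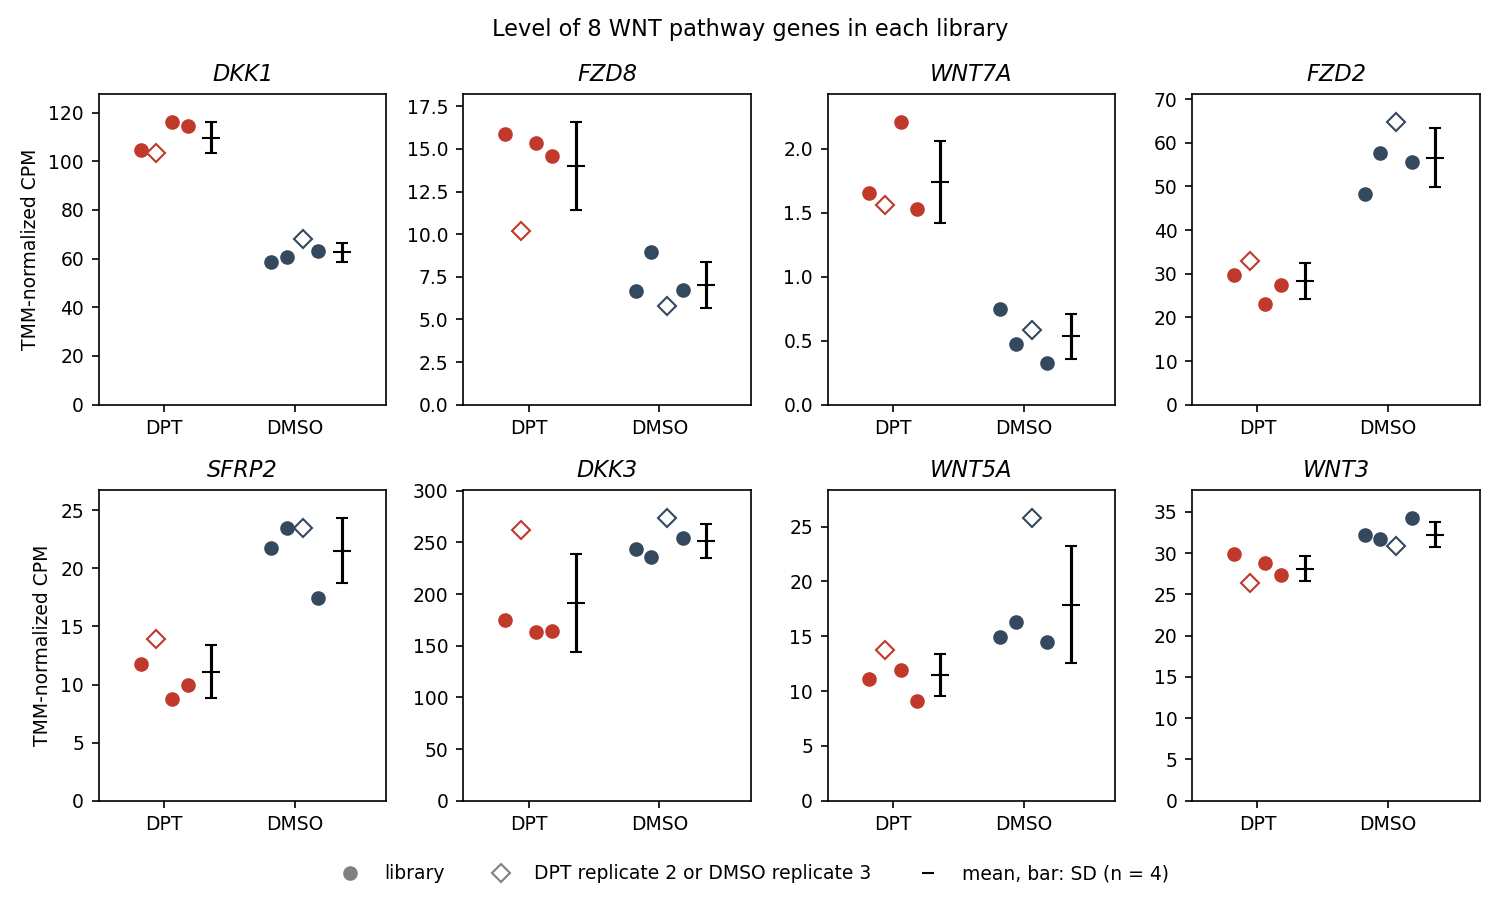
TMM-normalized CPM (y axis, from 0) of 8 genes in the 4 DPT and the 4 DMSO libraries, with open diamonds for DPT replicate 2 and DMSO replicate 3 and a bar for the mean and SD. DKK1, FZD8 and WNT7A lie higher in all DPT libraries than in any DMSO library, FZD2, SFRP2, WNT5A and WNT3 lie lower, and DKK3 overlaps through DPT replicate 2 (262.3 CPM).

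WNT ligands were few in kind. WNT5B, WNT3 and WNT5A took 48.4% ± 9.17, 32.6% ± 5.97 and 9.92% ± 1.77 of the summed WNT FPKM (fragments per kilobase of gene, scaled to library size, which compares genes of different length) in DPT, and 43.3% ± 6.81, 36.0% ± 6.07 and 14.0% ± 0.965 in DMSO (mean ± SD, n = 4 each). The summed WNT FPKM was 27.2 ± 4.62 in DPT and 27.5 ± 4.90 in DMSO, so the groups lay within each other's spread. The 2 libraries that stood apart had the highest sums, 34.0 in DPT replicate 2 and 34.6 in DMSO replicate 3, against 24.0 to 26.6 in the others.

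WNT7A, a ligand known for limb patterning in the mouse, was rare but higher with DPT. Its levels were 1.65, 1.56, 2.21 and 1.53 CPM in DPT replicates 1 to 4, against 0.745, 0.474, 0.584 and 0.33 CPM in DMSO replicates 1 to 4. The lowest DPT library held 25 counts and the highest DMSO library 11, and the groups did not overlap. The log2 fold change was 1.69 (SE 0.301, adjusted p = 0.00861), 1.69 with the term and 1.79 in the 6 libraries. WNT7A passed the filter only through the DPT libraries, and with no filter on low counts the log2 fold change was 1.68 (adjusted p = 0.0125). WNT7A (ENSG00000154764) lies on chromosome 3, 13816258 to 13880121 of GRCh38. Its close relative WNT7B measured 1.53 ± 0.445 CPM in DPT and 0.808 ± 0.471 CPM in DMSO (mean ± SD, n = 4 each; log2 fold change 0.90, adjusted p = 0.216). The WNT7B groups overlapped, and in the 6 libraries it was called (1.27, adjusted p = 0.0387).

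WNT5A, the best known ligand of the beta-catenin-independent branch, had 11.1, 13.7, 11.9 and 9.07 CPM in DPT replicates 1 to 4, against 14.9, 16.3, 25.8 and 14.5 CPM in DMSO replicates 1 to 4. Every DPT library lay below every DMSO library, and DMSO replicate 3 was far above the other DMSO libraries. In all 8 libraries the difference of -0.65 on the log2 scale (SE 0.203) missed the threshold (adjusted p = 0.0729). It passed with the term (-0.62, adjusted p = 0.000339), in the 6 libraries (-0.51, adjusted p = 0.00313), without DPT replicate 2 alone (-0.75, adjusted p = 0.0391) and with DESeq2 (-0.65, DESeq2 adjusted p = 0.0249).

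WNT5B, its close relative, had 22.4, 40.7, 18.4 and 21.3 CPM in DPT replicates 1 to 4, against 18.8, 19.7, 34.7 and 23.4 CPM in DMSO replicates 1 to 4. The high library of each group was the one that stood apart, and the groups overlapped (log2 fold change 0.08, SE 0.273, adjusted p = 0.882). WNT5B was high in DPT replicate 2 and DMSO replicate 3, whereas WNT5A was high in DMSO replicate 3 and, less so, in DPT replicate 2.

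WNT3 had 29.9, 26.4, 28.8 and 27.3 CPM in DPT replicates 1 to 4, against 32.2, 31.7, 30.8 and 34.3 CPM in DMSO replicates 1 to 4. The groups did not overlap, but the difference was small, -0.20 on the log2 scale (SE 0.0709, adjusted p = 0.106). With the term the adjusted p was 0.028, and in the 6 libraries it was 0.063. WNT2B (3.18 ± 0.224 CPM in DPT and 2.73 ± 1.12 CPM in DMSO) and WNT9A (2.93 ± 0.572 CPM in DPT and 3.78 ± 0.817 CPM in DMSO) were not called (adjusted p = 0.676 and 0.32). WNT2B shares 2661 of its 12561 annotated exon bases with ST7L on the opposite strand, so its value is uncertain where counting ignored strand.

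The other 12 WNT genes were near or at 0. WNT1 had no counts in any library. WNT4, a ligand of the developing kidney and gonad, had 4, 9, 3 and 1 counts in DPT replicates 1 to 4, against 0, 0, 1 and 0 counts in DMSO replicates 1 to 4. WNT8B had 0, 0, 1 and 2 counts in DPT replicates 1 to 4, against 9, 3, 2 and 3 counts in DMSO replicates 1 to 4. Both genes were under the filter, so the edgeR test with the filter did not cover them, and neither had more than 9 counts in any library. The WNT4 groups did not overlap in CPM, but the nearest libraries, DPT replicate 4 and DMSO replicate 3, held 1 count each. WNT10A, WNT10B, WNT11, WNT16, WNT2, WNT3A, WNT6, WNT8A and WNT9B had at most 3 counts in any library.

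Among Frizzled receptors, 1 of the 7 tested genes fell (14.3%, against 5.29% of all tested genes), 1 rose (14.3%, against 5.68%) and 5 were not called. With the term 1 fell (14.3%, against 17.0%) and 1 rose (14.3%, against 16.9%). FZD2, a receptor known to take WNT5A as a ligand, had 29.8, 33.0, 23.1 and 27.5 CPM in DPT replicates 1 to 4, against 48.4, 57.8, 64.8 and 55.5 CPM in DMSO replicates 1 to 4. The highest DPT library lay well below the lowest DMSO library. FZD2 was 2.00-fold lower (log2 fold change -0.999, SE 0.123, adjusted p = 0.00183), with -0.999 under the term and -1.01 in the 6 libraries, and DPT replicate 2 against DMSO replicate 3 alone gave -0.97. Leaving out any single library gave -1.08 to -0.91, always called. FZD2 (ENSG00000180340) lies on chromosome 17, 44557459 to 44559570 of GRCh38.

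FZD8, a receptor of the beta-catenin branch, moved the other way. It had 15.9, 10.2, 15.4 and 14.6 CPM in DPT replicates 1 to 4, against 6.64, 8.95, 5.78 and 6.72 CPM in DMSO replicates 1 to 4. The lowest DPT value was that of replicate 2, and it still exceeded every DMSO value. The rise was 2.00-fold (log2 fold change 0.996, SE 0.179, adjusted p = 0.00901), 0.99 on the log2 scale with the term, 1.04 in the 6 libraries and 0.82 between DPT replicate 2 and DMSO replicate 3 alone. FZD8 (ENSG00000177283) lies on chromosome 10, 35638249 to 35642278 of GRCh38.

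The remaining tested receptors had log2 fold changes between -0.22 (FZD1) and 0.10 (FZD5), with adjusted p from 0.453 to 0.823. FZD1 measured 9.01 ± 1.75 CPM in DPT and 10.5 ± 1.73 CPM in DMSO, FZD5 6.59 ± 1.35 CPM in DPT and 6.18 ± 0.897 CPM in DMSO, and FZD7 3.89 ± 0.447 CPM in DPT and 4.14 ± 1.03 CPM in DMSO. FZD6, a receptor of planar polarity, measured 24.8 ± 2.42 CPM in DPT and 27.3 ± 3.74 CPM in DMSO and was called only in the 6 libraries (-0.26, adjusted p = 0.0486). FZD4, the receptor for norrin in retinal vessels, measured 26.8 ± 5.11 CPM in DPT and 28.3 ± 2.30 CPM in DMSO. Its DPT replicate 2 had 19.2 CPM, below all the other libraries (26.3 to 31.0 CPM), and its change was 0.02 in the 6 libraries against -0.08 in all 8. FZD4 shares 1399 of its 7383 exon bases with the far more abundant PRSS23 on the opposite strand, so its level is uncertain. FZD9 and FZD10 had no counts, and FZD3 had at most 2 counts in any library.

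Per length, the makeup of the Frizzled messages is given as a description, with no test. FZD2 made up 30.6%, 35.0%, 26.1% and 29.5% of the summed Frizzled FPKM in DPT replicates 1 to 4, against 42.0%, 49.0%, 52.8% and 45.2% in DMSO replicates 1 to 4. FZD8 made up 15.2%, 10.1%, 16.2% and 14.6% in DPT replicates 1 to 4, against 5.38%, 7.08%, 4.39% and 5.11% in DMSO replicates 1 to 4. FZD2 and FZD6 were close in DPT (30.3% ± 3.70 and 28.4% ± 2.00), while FZD2 led FZD6 in DMSO (47.2% ± 4.68 and 24.7% ± 4.41; SD, n = 4 each). The summed Frizzled FPKM was 25.0 ± 0.920 in DPT and 31.2 ± 1.06 in DMSO, with no overlap of the groups.

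**Figure D2:**
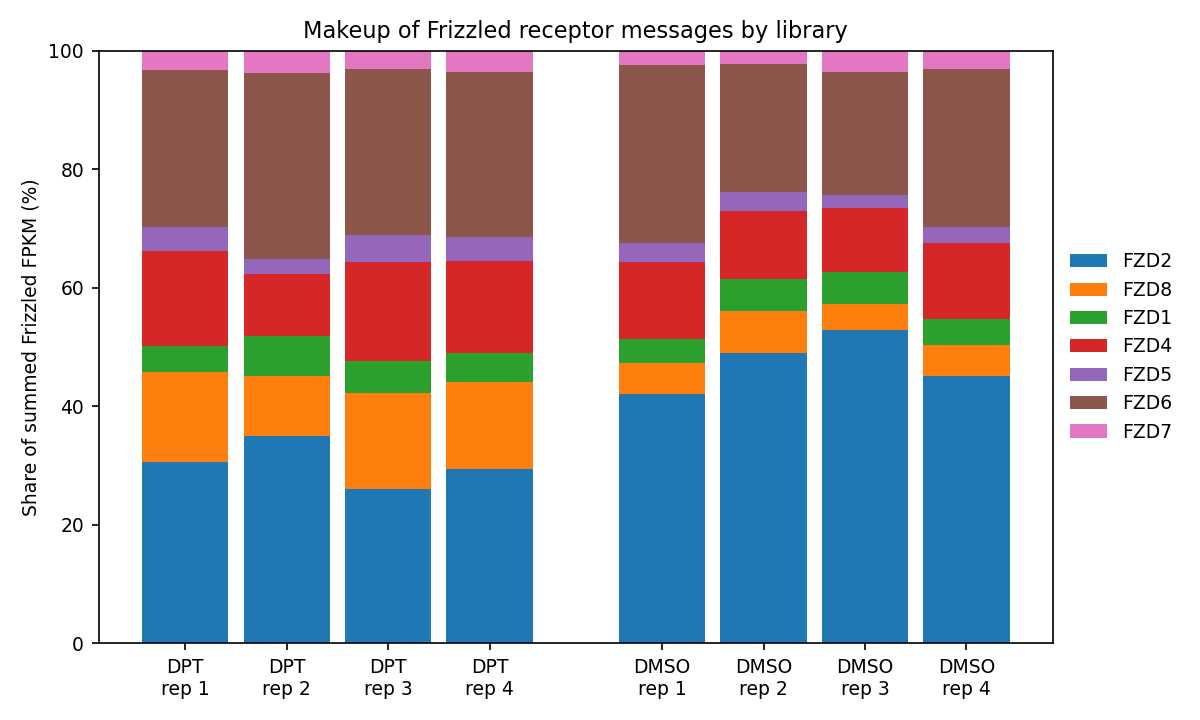
Share of the summed Frizzled FPKM (y axis, percent) taken by each of the 7 tested receptors in the 4 DPT libraries (left) and the 4 DMSO libraries (right). The FZD2 share lies at 26.1% to 35.0% in DPT and 42.0% to 52.8% in DMSO, and the FZD8 share at 10.1% to 16.2% in DPT and 4.39% to 7.08% in DMSO.

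DKK antagonists were the most abundant genes of the set. DKK1, which binds LRP5 and LRP6 and is itself a known target of beta-catenin, had 104.7, 103.5, 116 and 114.6 CPM in DPT replicates 1 to 4, against 58.5, 60.6, 68.0 and 63.0 CPM in DMSO replicates 1 to 4. All DPT libraries lay far above all DMSO libraries, including those that stood apart. The rise was 1.75-fold (log2 fold change 0.81, SE 0.0705, adjusted p = 0.000432), 0.81 on the log2 scale with the term, 0.88 in the 6 libraries and 0.61 between DPT replicate 2 and DMSO replicate 3 alone. Leaving out any single library gave 0.78 to 0.85, always called. Per length DKK1 reached 61.6 ± 3.84 FPKM in DPT and 34.1 ± 2.41 FPKM in DMSO. DKK1 (ENSG00000107984) lies on chromosome 10, 52314296 to 52318042 of GRCh38.

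The promoter sequences of DKK1 and FZD8, both of chromosome 10, are shown because both genes rose. Their promoters were also the only ones among those searched that held TATAAA, the letters used here for a TATA box. Each is the 250 bases before the start that RefSeq annotates (GRCh38.p14, read along the gene's strand), with motif matches in capitals. The DKK1 stretch is chr10:52314031-52314280 on the plus strand and the FZD8 stretch is chr10:35642297-35642546 on the minus strand.
DKK1: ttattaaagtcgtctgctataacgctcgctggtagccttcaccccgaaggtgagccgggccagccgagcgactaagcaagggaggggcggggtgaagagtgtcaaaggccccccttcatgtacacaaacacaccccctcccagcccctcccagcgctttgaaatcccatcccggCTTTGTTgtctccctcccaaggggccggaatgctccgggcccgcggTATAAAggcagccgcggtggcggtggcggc
FZD8: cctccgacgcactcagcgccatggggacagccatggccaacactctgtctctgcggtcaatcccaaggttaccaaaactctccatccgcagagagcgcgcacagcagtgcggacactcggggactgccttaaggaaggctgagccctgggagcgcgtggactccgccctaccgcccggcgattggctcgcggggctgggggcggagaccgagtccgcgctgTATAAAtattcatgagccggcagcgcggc
The capitals mark TATAAA (searched on the gene's own strand), which opens 30 bases before the start in DKK1 and 29 in FZD8, and CTTTGTT, a form of the TCF/LEF motif, which opens 76 bases before the start in DKK1. The TCF/LEF motif was searched as CTTTGAT or CTTTGTT, AP-1 as TGANTCA and the cyclic AMP response element as TGACGTCA, each on both strands, and the matches do not overlap. Other forms were not searched, among them CTTTGAA, which the DKK1 stretch also holds. Of 29 promoters that RefSeq gives for the set, 2 held TATAAA and 1 held a searched form of the TCF/LEF motif, while 0 held AP-1 and 0 the cyclic AMP response element. Over all 35116 promoters the shares were 6.80%, 6.60%, 6.57% and 1.65% in the same order, so TATAAA was about as common in the set as elsewhere. These matches describe letters only, and the promoters of SFRP2 and WNT7A, also searched, held none of the 4 motifs in the letters used. FZD2 had no promoter among those available and was not searched.

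DKK3, a divergent member of the family, was the most abundant gene of the set. It had 174.4, 262.3, 163.6 and 164.3 CPM in DPT replicates 1 to 4, against 244, 235.5, 273.8 and 253.9 CPM in DMSO replicates 1 to 4. In DPT 3 of 4 libraries lay below every DMSO library, and replicate 2 lay among the DMSO values. In all 8 libraries the difference of -0.40 on the log2 scale (SE 0.147) missed the threshold (adjusted p = 0.119). It passed with the term (-0.42, adjusted p = 0.000165), in the 6 libraries (-0.55, adjusted p = 8.18e-08) and without DPT replicate 2 alone (-0.59, adjusted p = 0.000675). Between DPT replicate 2 and DMSO replicate 3 the difference was -0.06. DKK2 had at most 3 counts in any library, and DKK4 had none.

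SFRP2, a secreted protein with a WNT-binding domain like that of the Frizzleds, led the SFRP antagonists. It had 11.8, 14.0, 8.73 and 9.93 CPM in DPT replicates 1 to 4, against 21.7, 23.5, 23.5 and 17.5 CPM in DMSO replicates 1 to 4. The groups did not overlap, and DPT replicate 2 and DMSO replicate 4 were nearest to each other. SFRP2 was 1.94-fold lower (log2 fold change -0.96, SE 0.157, adjusted p = 0.0062), with -0.96 under the term, -1.04 in the 6 libraries and -0.75 between DPT replicate 2 and DMSO replicate 3 alone. SFRP2 (ENSG00000145423) lies on chromosome 4, 153780592 to 153789120 of GRCh38. SFRP1 measured 3.04 ± 1.44 CPM in DPT and 2.44 ± 0.428 CPM in DMSO and was not called (log2 fold change 0.32, adjusted p = 0.589). FRZB had 2 to 13 counts in DPT and 3 to 8 counts in DMSO, SFRP4 had at most 6 counts and SFRP5 at most 1.

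**Figure D3:**
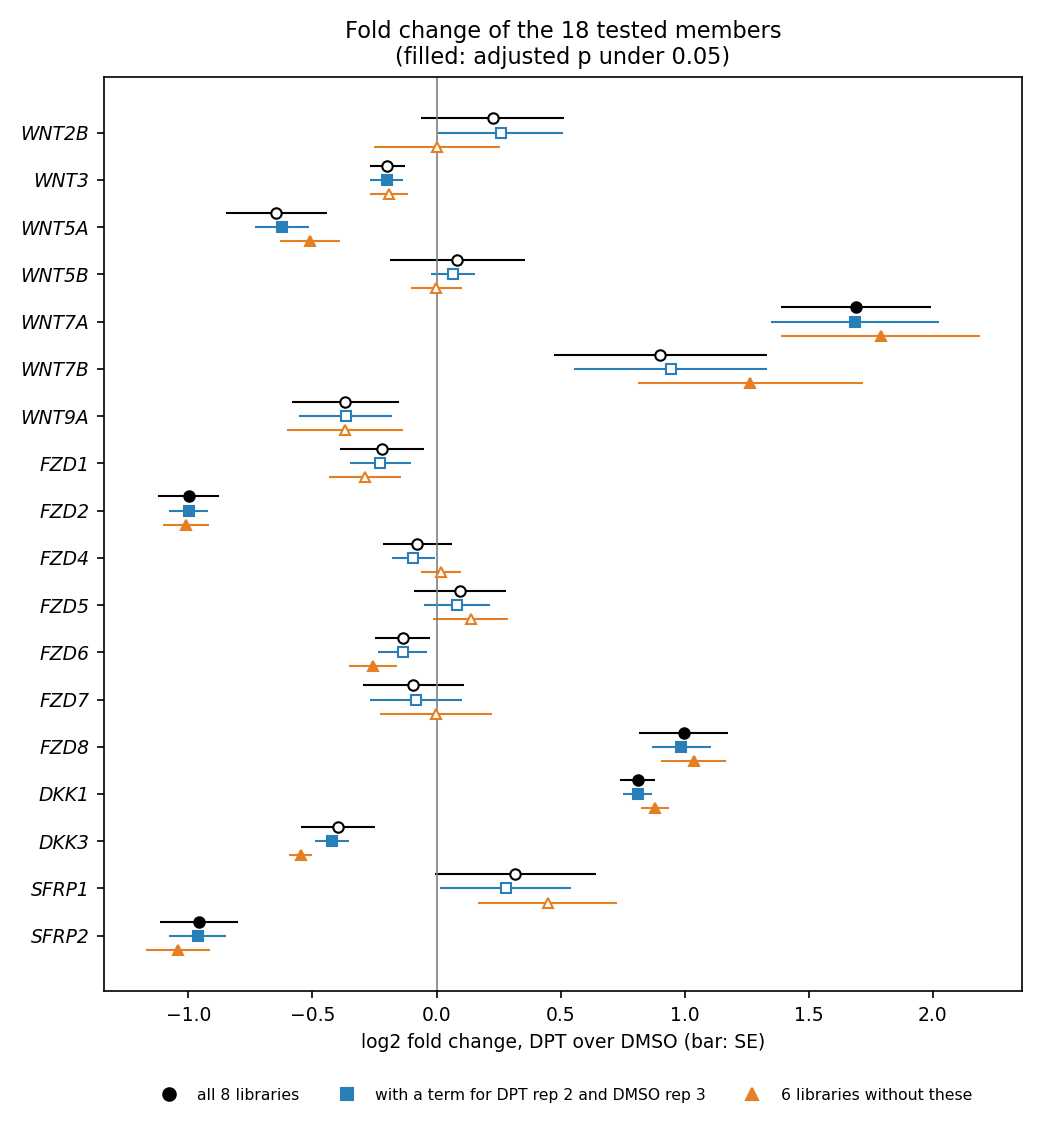
Log2 fold change of DPT over DMSO (x axis, bar for the SE) of the 18 tested genes (y axis) from all 8 libraries, with a term for DPT replicate 2 and DMSO replicate 3, and from the 6 other libraries, filled where the adjusted p was under 0.05. WNT7A, FZD2, FZD8, DKK1 and SFRP2 are filled in all 3 fits, while WNT5A and DKK3 are filled with the term and in the 6 libraries.

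Members of the same family were compared through the log2 ratio of their CPM within each library. In DPT the FZD8 to FZD5 ratio was 1.09 ± 0.042, and in DMSO it was 0.18 ± 0.155 (mean ± SD, n = 4 each). The FZD2 to FZD1 ratio was 1.66 ± 0.238 in DPT and 2.44 ± 0.099 in DMSO, and the FZD2 to FZD7 ratio was 2.86 ± 0.118 in DPT and 3.80 ± 0.267 in DMSO. The DKK1 to DKK3 ratio was -0.77 ± 0.394 in DPT and -2.01 ± 0.041 in DMSO. None of these 4 ratios overlapped between the groups, but each holds a gene called above (FZD8, FZD2 or DKK1), so they are no separate support. Each had a two-sided exact permutation p = 0.0286, the smallest that 4 against 4 libraries allow, and an adjusted p = 0.0571 over the 8 ratios examined, so none passed after adjustment. The ratios of WNT5A to WNT5B, WNT7A to WNT7B, SFRP2 to SFRP1 and FZD7 to FZD1 had exact permutation p = 0.0571, 0.229, 0.0857 and 0.486.

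The rest of the pathway was described through lists of 90 genes, of which 65 were tested. Of these 3 rose (4.62%, against 5.68% of all tested genes) and 6 fell (9.23%, against 5.29%), and the median log2 fold change was -0.06. With the term 10 rose (15.4%, against 16.9% of all tested genes) and 16 fell (24.6%, against 17.0%). In the 6 libraries 13 of 66 rose (19.7%, against 17.0%) and 16 fell (24.2%, against 17.1%). Rises numbered 7 of 67 when DPT replicate 2 was left out (1183 of 12775 over all genes) and 6 of 67 when DMSO replicate 3 was (859 of 12761). They numbered 1 when any of the other DPT libraries, DMSO replicate 1 or DMSO replicate 4 was left out (331 to 459 over all genes).

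Genes that make, export or remove WNTs did not pass the test (0 of 5 with edgeR, 0 at an unadjusted p under 0.05, and 0 with DESeq2, limma, the term or the 6 libraries). The WNT carrier WLS measured 54.6 ± 7.24 CPM in DPT and 50.3 ± 7.36 CPM in DMSO, and the acyltransferase PORCN, which adds the lipid, 3.53 ± 0.690 CPM in DPT and 3.87 ± 0.526 CPM in DMSO (adjusted p = 0.596 and 0.714). In the R-spondin axis, which controls how many Frizzleds stay on the surface, 3 of 9 genes were tested. Of these 0 were called with edgeR, DESeq2, limma, the term or the 6 libraries (0 at an unadjusted p under 0.05). The shares of all tested genes were those given above, and 3 genes are too few to differ from them. ZNRF3, a ligase that removes Frizzleds, measured 3.36 ± 0.402 CPM in DPT and 3.81 ± 0.983 CPM in DMSO. RNF43 had no counts, and LGR5 had 4, 0, 0 and 3 counts in DPT replicates 1 to 4 against 0, 1, 0 and 1 counts in DMSO replicates 1 to 4.

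Of 10 tested genes listed with the co-receptors and other WNT receptors 1 fell (10.0%, against 5.29% of all tested genes, median log2 fold change -0.11). With the term 5 fell (50.0%, against 17.0%) and 1 rose (10.0%, against 16.9%). In the 6 libraries 5 of 9 fell (55.6%, against 17.1%) and 2 rose (22.2%, against 17.0%). The rises, named after their values were seen, were TPBG with the term, and TPBG and MCC in the 6 libraries. Neither is itself a WNT receptor, so these rises are not rises of receptors. LRP5 had 55.1, 62.4, 44.0 and 52.1 CPM in DPT replicates 1 to 4, against 78.6, 66.2, 80.8 and 77.5 CPM in DMSO replicates 1 to 4. The groups did not overlap (log2 fold change -0.51, SE 0.109, adjusted p = 0.0183). The call was lost without DPT replicate 4 (-0.493, adjusted p = 0.0622), DMSO replicate 1 (-0.487, adjusted p = 0.061) or DMSO replicate 4 (-0.495, adjusted p = 0.0582). LRP6 differed by -0.20 on the log2 scale (adjusted p = 0.285), and by -0.20 with the term, where it was called (adjusted p = 0.0144). In the list of other secreted antagonists, 1 of 8 genes was tested and was not called. In the 6 libraries 1 of 2 fell (50.0%, against 17.1% of all tested genes).

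Along the route from receptor to beta-catenin, 1 of 27 tested genes rose and 1 fell (3.70% each, against 5.68% and 5.29% of all tested genes, median -0.03). With the term 4 rose (14.8%, against 16.9%) and 5 fell (18.5%, against 17.0%), near the background. In the 6 libraries 6 of 28 rose (21.4%, against 17.0%), LEF1 (described below) among them, and 4 fell (14.3%, against 17.1%). CTNNB1, which encodes beta-catenin, measured 173.1 ± 3.80 CPM in DPT and 173.9 ± 8.33 CPM in DMSO (log2 fold change -0.007, SE 0.0576, adjusted p = 0.954). DVL1, the adaptor that Frizzleds recruit, rose to 121.3 ± 6.02 CPM in DPT, against 92.2 ± 6.90 CPM in DMSO (log2 fold change 0.40, adjusted p = 0.00877). TCF7L2, a DNA-binding partner of beta-catenin, fell to 33.3 ± 1.45 CPM in DPT, against 51.1 ± 5.53 CPM in DMSO (-0.62, adjusted p = 0.00367). TCF7 had 9.61, 19.5, 13.0 and 9.31 CPM in DPT replicates 1 to 4, against 9.69, 10.2, 18.8 and 9.89 CPM in DMSO replicates 1 to 4. Like WNT5B it was highest in the libraries that stood apart, and it was not called (adjusted p = 0.898).

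Of 17 genes known as targets of beta-catenin, 8 were tested and 2 rose (25.0%, against 5.68% of all tested genes, median 0.17). With the term 4 rose (50.0%, against 16.9%). In the 6 libraries 5 of 9 rose (55.6%, against 17.0%), but LEF1, described below, was among them, so this share is no support. The feedback gene AXIN2, the usual readout of beta-catenin activity, had 7, 3, 6 and 7 counts in DPT replicates 1 to 4, against 11, 2, 9 and 7 counts in DMSO replicates 1 to 4. AXIN2 was under the filter, so the edgeR test with the filter did not cover it. LEF1, both a partner and a target, had 12, 2, 23 and 11 counts in DPT replicates 1 to 4, against 3, 1, 3 and 1 counts in DMSO replicates 1 to 4. LEF1 was under the filter with all 8 libraries and passed it in the 6 only through the DPT libraries, where it is high, so its call there (log2 fold change 2.97, adjusted p = 0.00172) is no support for a rise. DPT replicate 2 lay among the DMSO libraries.

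The targets that rose, the cell cycle gene CCND1 and the growth regulator MYC, answer to many pathways. CCND1 rose to 541.8 ± 26.1 CPM in DPT, against 416.5 ± 51.6 CPM in DMSO (log2 fold change 0.38, adjusted p = 0.0308), and MYC to 277.1 ± 59.3 CPM in DPT, against 170.5 ± 37.0 CPM in DMSO (0.70, adjusted p = 0.0494). With the term CCND1 differed by 0.39 (adjusted p = 1.92e-05) and MYC by 0.70 (adjusted p = 6.95e-09). In the 6 libraries CCND1 differed by 0.32 (adjusted p = 1.61e-05) and MYC by 0.69 (adjusted p = 3.95e-09). From all 8 libraries, both calls were lost when certain single libraries were left out. CCND1 was not called without DPT replicates 1, 3 or 4 or DMSO replicates 1 or 4 (adjusted p = 0.0675 to 0.0838), nor MYC without DPT replicates 1, 3 or 4 or DMSO replicates 1, 2 or 4 (adjusted p = 0.0848 to 0.137). MYC overlapped between the groups at DPT replicate 2 (190.5 CPM) and DMSO replicate 2 (190.7 CPM).

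In the planar polarity branch, the route by which some Frizzleds orient cells within a sheet, 4 of 14 tested genes fell (28.6%, against 5.29% of all tested genes, median -0.23), but 1 of the 4, PRICKLE4, passed the filter only through the DMSO libraries, so the share is no support. With the term 6 fell (42.9%, against 17.0%) and 1 rose (7.14%, against 16.9%). The 6 libraries gave the same counts, against 17.1% and 17.0% of all tested genes. PRICKLE4 was among the genes that fell in both fits, so these shares are no support either. PRICKLE1, a cytoplasmic core protein, had 12.3, 11.3, 8.31 and 9.56 CPM in DPT replicates 1 to 4, against 24.6, 22.9, 18.5 and 22.6 CPM in DMSO replicates 1 to 4 (log2 fold change -1.09, SE 0.140, adjusted p = 0.00228). CELSR2, an adhesion receptor of the branch, had 7.28, 6.65, 7.47 and 7.29 CPM in DPT replicates 1 to 4, against 14.8, 11.2, 11.7 and 14.2 CPM in DMSO replicates 1 to 4 (-0.85, SE 0.124, adjusted p = 0.00378). In neither gene did the groups overlap. CELSR1 and PRICKLE4, named after their values were seen, were the other genes that fell. CELSR1 measured 29.4 ± 1.60 CPM in DPT and 40.7 ± 2.56 CPM in DMSO (-0.47, adjusted p = 0.00523). PRICKLE4 measured 0.317 ± 0.156 CPM in DPT and 1.50 ± 0.559 CPM in DMSO (-2.20, adjusted p = 0.0132), and its value is uncertain because a second row of the table carries the same symbol.

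**Figure D4:**
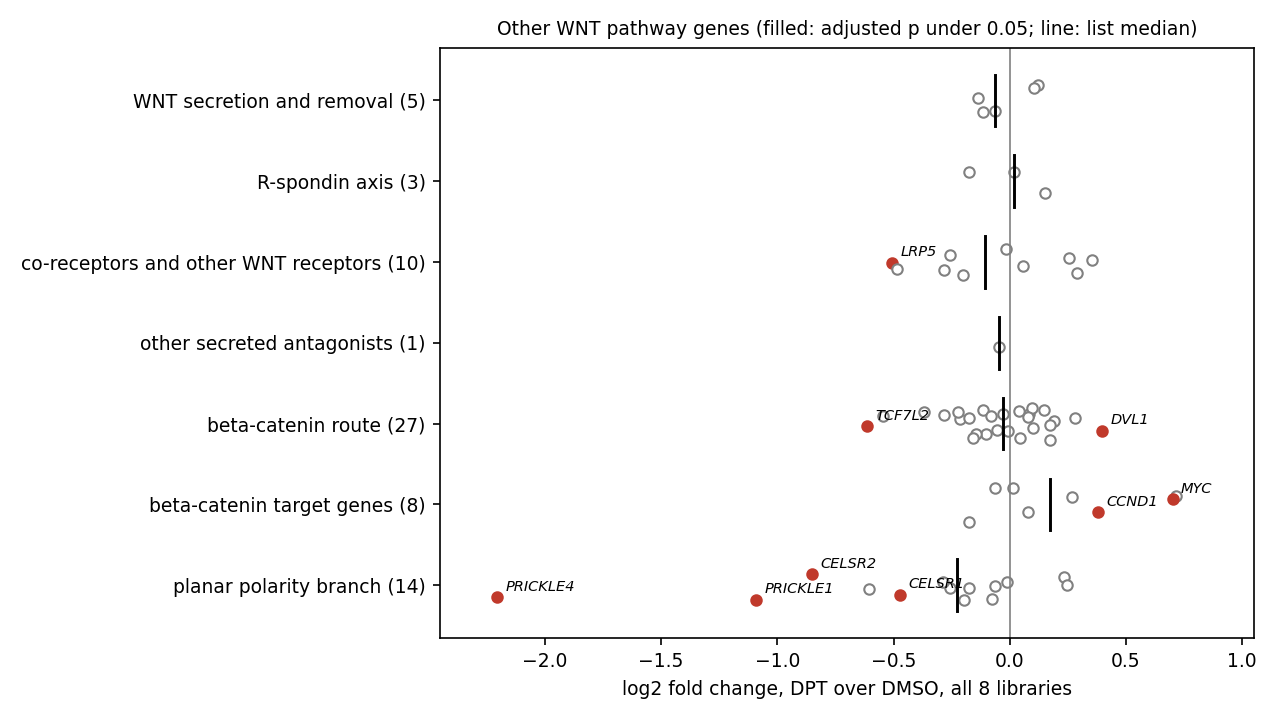
Log2 fold change of DPT over DMSO from all 8 libraries (x axis) for the tested genes of 7 pathway lists (y axis, number of tested genes in parentheses), filled where the adjusted p was under 0.05, with a line at each list's median. In the planar polarity list 4 of 14 fell (28.6%, against 5.29% of all tested genes, median -0.23). Among them is PRICKLE4, which passed the filter only through the DMSO libraries, so the share is no support. In the target list 2 of 8 rose (25.0%, against 5.68%, median 0.17), and in the beta-catenin route 1 of 27 rose and 1 fell (3.70% each).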

How the data were processed

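Polyadenylated RNA of 8 H2452 cultures was sequenced, and the deposited table gives 2 values per gene and library. The authors deposited expected counts, per the file headers and the values, of which 10.8% are not whole. They also deposited FPKM values, scaled to gene length and library size, per the file headers. The build was hg38 and the software RSEM, DESeq2, HISAT2, fastp (0.18.0) and StringTie (1.3.1), per the submitters' processing notes. For strand, annotation release and roles: not given in the sources used here. Antisense and overlapping genes may therefore share reads.

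Expected counts were rounded and tested with edgeR 4.0.16 in R 4.3.3 (filterByExpr at its defaults of 10 counts and a total of 15, TMM, a treatment term only), which gave 718 higher and 669 lower genes. CPM values are TMM-normalized. Alternatives used DESeq2 1.42.0 and limma 3.58.1, and limma also on log2(FPKM + 1) and log2(FPKM + 0.1), where a fold change understates that of low genes. The tests were checked on simulated data. Positions are from GENCODE 29 (GRCh38), matched on Ensembl identifiers, and 26 of the 38 genes matched the RefSeq promoter table. Where several rows carried the symbol of a pathway or marker gene, the row with that name in GENCODE was used.

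The genes and lists were chosen with earlier results of these data known. Every tested member is named, the others by their counts. Of each list, the 2 higher and 2 lower called genes with the smallest adjusted p are named, and AXIN2, LGR5, RNF43, ZNRF3, LEF1, TCF7, CTNNB1, LRP5, LRP6, WLS and PORCN in any case.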

Additional observations from a re-analysis of the deposited data

Results flagged for a closer look

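For 31 tested genes, the 18 tested members of the families and 13 other pathway genes, each group of 4 libraries was examined for a single library far from the other 3, by the gap to its nearest neighbour over the whole range (Dixon's test). Of 62 groups 7 had one, where chance gives about 1 in 20, and in all 7 it was DMSO replicate 3 (4 genes) or DPT replicate 2 (3 genes), the libraries that stood apart over all genes.

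In DPT replicate 2, DKK3 had 262.3 CPM against 163.6 to 174.4 CPM in the other DPT libraries, FZD6 had 28.4 CPM against 23.4 to 24.1 CPM, and FZD4 had 19.2 CPM against 28.6 to 30.4 CPM. In DMSO replicate 3, WNT5A had 25.8 CPM against 14.5 to 16.3 CPM in the other DMSO libraries, TCF7 had 18.8 CPM against 9.69 to 10.2 CPM, LRP6 had 42.4 CPM against 55.3 to 56.2 CPM, and MYC had 115 CPM against 188.2 to 190.7 CPM.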

How the results depend on the processing

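The calls of WNT7A (which passed the filter only through DPT), FZD2, DKK1 and SFRP2 held in all 19 alternative settings, and that of FZD8 in 18. With the term for DPT replicate 2 and DMSO replicate 3, genes called higher and lower numbered 2140 and 2156 over all genes, 3 and 5 among the 38 genes and 10 and 16 in the pathway lists, and in the 6 other libraries 2158 and 2170, 4 and 5, and 13 and 16. Over all genes 1183 were higher and 1108 lower without DPT replicate 2, 859 and 877 without DMSO replicate 3, and 331 to 459 and 305 to 434 without any other single library. Leaving out 1 library gave 3 higher and 2 to 4 lower among the 38 genes (4 without DPT replicate 2), and 1 to 7 higher and 4 to 8 lower in the lists. Limma on log2(FPKM + 1) called 737 higher and 342 lower genes, against 718 and 669 with edgeR, and 5 higher in the lists, and on log2(FPKM + 0.1) 738, 336 and 5.

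The replicate block called 171 higher and 174 lower genes and 0 higher in the lists, and lost FZD8 (adjusted p = 0.072), DVL1 (0.0605), LRP5 (0.0926), CCND1 (0.0897) and MYC (0.149). Whether the numbers pair the samples is not given. Deviations from the group mean correlated at 0.204, -0.314, -0.397 and 0.209 between same-numbered libraries, and at 0.676 between DPT replicate 2 and DMSO replicate 3. The 2 libraries that stood apart shift their group means and so shape the other correlations, which therefore cannot decide the pairing.

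Signs that changed belonged to uncalled genes. WNT5B ranged from -0.23 to 0.31 over the fits without 1 library and was -0.00036 in the 6 libraries, FZD4 from -0.14 to 0.051 and 0.017, CTNNB1 from -0.037 to 0.014 and 0.0019 (0.038 on either FPKM scale), FZD5 from -0.0032 to 0.23, FZD7 from -0.19 to 0.056, SFRP1 from -0.038 to 0.53 and TCF7 from -0.20 to 0.37. ZNRF3 was 0.012 and 0.05 on log2(FPKM + 1) and log2(FPKM + 0.1). MYC was also lost with limma-voom (adjusted p = 0.0568) and upper-quartile scaling (0.0512), and PRICKLE1 on log2(FPKM + 0.1) (0.0528). The cause of these changes was not tested. Depth limits the 20 genes under the filter, none above 13 counts in a library.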
